A study of Mus musculus with 10 samples.

Results

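The interferon response genes described here are a list of 38 genes that cells switch on after type I or type II interferon, picked by gene symbol. Of these, 36 were measured, among 18193 genes on the array. Isg15 was left out because its probe set carries 2 gene symbols, and no probe set carries Ifi44 as its single symbol. The arrays (Affymetrix, mouse) measured mRNA in cultured primary keratinocytes of newborn FVB mice, the cells of the epidermis that stop dividing and stratify when calcium is raised. The array groups were 5-AZA (n = 2), A-C/EBP (n = 2), differentiated (n = 4) and undifferentiated (n = 2). Undifferentiated cells stayed in 0.05 mM calcium, and the other groups were kept in 0.4 mM calcium for 2 days. 5-AZA cells also received 1 µM 5-azacytidine, an inhibitor of DNA methyltransferases, from a few hours after seeding. A-C/EBP cells came from mice that carry a dominant negative inhibitor of C/EBP DNA binding, expressed in keratinocytes under tetracycline control and induced by withdrawing doxycycline. All groups are labelled as FVB. Whether the control arrays came from wild type or transgenic mice is not given in the sources used here, so the effects of the inhibitor, of the transgenic line and of doxycycline withdrawal cannot be told apart. Whether replicates came from separate cultures is likewise not given, and the p-values then cover only how far these samples scatter, which may be technical variation.

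Interferons bind receptors on the cell surface, and the receptors switch on JAK kinases and STAT transcription factors. A complex that holds STAT2 and IRF9 binds the interferon-stimulated response element (ISRE), whereas the interferon gamma signal acts mainly through the gamma-activated site (GAS). The induced genes encode sensors of viral RNA, enzymes that degrade RNA or block its translation, membrane proteins that hold back virus release, chemokines, and inhibitors such as USP18 that shut the receptor signal down. Keratinocytes respond to interferon and can also make it themselves.

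The values are log2 levels, so a difference of 1 is a change of 2-fold, and RMA makes the arrays comparable but gives no true zero. The array medians over all 45101 probe sets lay between 4.64 and 4.78. Across genes, replicate arrays of a group correlated with r between 0.990 and 0.996 (a correlation over genes, which do not count as independent replicates). A gene is said here to rise or fall only where limma, adjusted by Benjamini-Hochberg over all 18193 genes, gave an adjusted p under 0.05. All 9 measured keratinocyte markers lay above the array median in every array. Of 17 measured markers of immune cells, 8 lay below the array median in every array, among them the pan-leukocyte gene Ptprc at 3.54 to 3.91, and the mean of the list was 4.92 to 5.19. The myeloid markers Lyz2 (6.83 to 9.18), Csf1r (6.25 to 7.49), Tyrobp (6.10 to 7.38), Cd68 (6.07 to 7.06) and Cd14 (6.10 to 7.35) lay above the median in every array. The mean was 5.17 to 6.39 for 9 fibroblast markers, 4.06 to 4.33 for 6 endothelial markers and 8.12 to 8.94 for 6 melanocyte markers. A place above or below the array median describes signal on the array, and neither it nor a list's mean compares mRNA amounts between genes. In such bulk cultures, fewer cells of a type and less RNA per cell cannot be told apart.

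Of the 36 members, 7 lay below the array median in all 10 arrays, 20 lay above it in all 10, and 9 lay on both sides. Over all genes, 35.5% lay below the median in every array.

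RefSeq promoter windows (GRCm38.p6, from 250 bases before to 50 bases after the start) were at hand for 26 of the 36 measured members. They were searched on both strands for the ISRE core (GAAA, any 2 bases, then GAAA), the GAS core TTCNNNGAA, which is its own reverse complement, and the C/EBP palindrome TTGCGCAA. The ISRE core was found in 12 of the 26 members (46.2%), against 3.99% of 27025 genes with a window and 3.44% of the 32851 windows. The GAS core was found in 8 members (30.8%), against 9.55% of genes and 8.3% of windows. The C/EBP palindrome was found in 0 members, against 0.207% of genes and 0.183% of windows. A match is a run of letters and not a proven binding site, and the list was made of known interferon targets. The stretches below are from 5 members described in the comparisons, of which Rsad2 and Isg20 passed a test, and are printed 5′ to 3′ on the gene's strand with the matches in capitals. Usp18 and Ccl5 are not among the 26, and the ISRE match of Ifih1 lies after the start, outside the stretches chosen. Those from Rsad2, Ifit1 and Bst2 hold the ISRE core, and those from Isg20 and Irf1 hold the GAS core. Isg20 and Irf1 have further windows without a match, and a gene was counted when any of its windows held one.
Rsad2, chr12:26456543-26456592, minus strand: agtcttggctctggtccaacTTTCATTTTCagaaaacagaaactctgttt
Ifit1, chr19:34640765-34640833, plus strand: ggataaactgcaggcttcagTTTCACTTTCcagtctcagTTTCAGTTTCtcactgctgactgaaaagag
Bst2, chr8:71537567-71537622, minus strand: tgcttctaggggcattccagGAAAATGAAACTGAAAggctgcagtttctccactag
Isg20, chr7:78913331-78913379, plus strand: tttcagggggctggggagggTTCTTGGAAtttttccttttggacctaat
Irf1, chr11:53769904-53769952, plus strand: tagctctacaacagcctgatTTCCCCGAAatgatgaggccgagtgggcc
In Ifit1 the core occurs 2 times. In Bst2 2 matches overlap in a single run, and a GAS match, TTCCAGGAA, overlaps its start.

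The first comparison asked how the interferon response genes change when keratinocytes differentiate in high calcium. A few of them rose and none passed the test as lower. Usp18, Ifih1, Ccl5 and Isg20 rose, so that 4 of 36 members passed upward and 0 downward, where 6.64% of all genes rose and 9.14% fell. The share of members that rose was 11.1%. Of the 17 immune cell markers, 2 also rose (11.8%), Csf1r by 0.82 and Cd14 by 0.70. The log2 fold change was below 0 for 13 of the 17, with a median of −0.06 over the list. Of the 9 keratinocyte markers, 2 fell and 5 were under −0.5, against 9.14% and 8.87% of all genes. Between the undifferentiated arrays, 2 of the 9 were lower in replicate 1 by more than 0.5, against 2.04% of all genes. Krt1 measured 9.18 and 10.98 there, and Krt10 8.33 and 9.96. In differentiated arrays they lay at 8.38 to 9.17 and 7.60 to 8.10. The part of the immune cell and keratinocyte markers in the members' rises was not tested. An unadjusted limma p under 0.05 was reached by 12 members, all of them higher, and by 25.8% of all genes. By the methods' t-test, 6 members reached an unadjusted p under 0.05, all higher, and 0 an adjusted one. Of all 18193 genes, 4025 reached an unadjusted p under 0.05 by that test, in either direction, and 864 an adjusted one. The log2 fold change was above 0 for 32 of 36 members (88.9%), against 48.0% of all genes, and its median was 0.27 over the members and −0.01 over all genes. The arrays of the 2 groups did not overlap, with differentiated higher, for 16 members (44.4%), against 15.1% of all genes. They did not overlap with differentiated lower for 0 members, against 19% of all genes.

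Usp18, a protease that removes ISG15 from proteins and blocks the type I interferon receptor, had the largest change among the members. Its level was 8.19, 7.62, 8.06 and 9.31 in differentiated keratinocytes, against 6.15 and 6.42 in undifferentiated keratinocytes. All differentiated arrays lay above both undifferentiated ones, and differentiated replicate 4 lay above the other differentiated arrays by more than the undifferentiated arrays differed. The log2 fold change was 2.01 (SE 0.53, limma adjusted p = 0.0277), a fold of 4.03.

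Ifih1 encodes MDA5, a cytosolic sensor of long double-stranded RNA. It measured 8.23, 7.98, 8.14 and 8.73 in differentiated arrays, against 7.15 and 7.12 in undifferentiated arrays. The groups were well apart, with a log2 fold change of 1.14 (SE 0.25, limma adjusted p = 0.0115). Dhx58, which encodes the related sensor LGP2, lay below the array median throughout and differed by 0.02 (limma adjusted p = 0.951).

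Isg20, an exonuclease that degrades single-stranded RNA, measured 6.79, 6.79, 6.63 and 6.85 in differentiated arrays, against 6.28 and 5.98 in undifferentiated arrays. Its spread within each group was small, and it had the smallest p-value of the members, with a log2 fold change of 0.63 (SE 0.12, limma adjusted p = 0.0054). Ccl5, a chemokine that draws in T cells and monocytes, measured 5.57, 5.52, 5.46 and 5.70 in differentiated arrays, against 5.00 and 4.51 in undifferentiated arrays. The undifferentiated arrays differed from each other more than the differentiated ones did, and the log2 fold change was 0.80 (SE 0.19, limma adjusted p = 0.0150).

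These 4 calls depended on the undifferentiated arrays. Without undifferentiated replicate 2, 0 members passed, with log2 fold changes of 2.15 for Usp18, 1.12 for Ifih1, 0.56 for Ccl5 and 0.48 for Isg20. Without undifferentiated replicate 1, Usp18 (1.88, limma adjusted p = 0.180) and Ifih1 (1.15, limma adjusted p = 0.0817) did not pass, and without differentiated replicate 1 Usp18 did not pass (2.05, limma adjusted p = 0.0522).

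**Figure D1:**
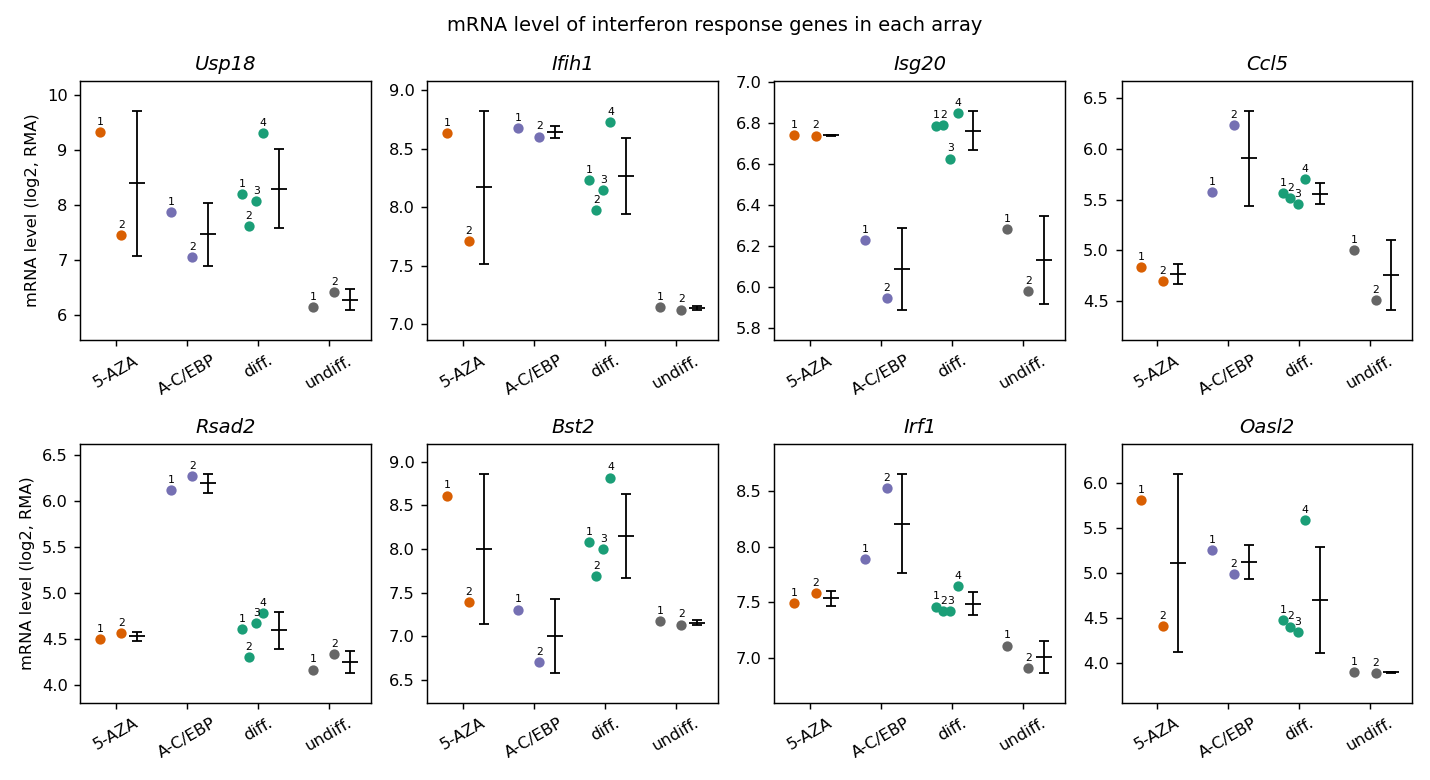
Log2 RMA level (y axis, not starting at 0) of 8 interferon response genes in each array of the 5-AZA, A-C/EBP, differentiated and undifferentiated groups (x axis). Points are arrays with their replicate numbers, and the bars give the mean ± SD of the group. Usp18 lay at 7.62 to 9.31 in differentiated arrays and at 6.15 and 6.42 in undifferentiated arrays, and Rsad2 was highest in both A-C/EBP arrays.

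Further members had differences over 0.5 without passing the test, which made 10 of 36 over 0.5 (27.8%), against 7.23% of all genes, and 0 under −0.5, against 8.87%. Bst2 encodes tetherin, which holds budding virus at the cell surface. It measured 8.08, 7.69, 8.00 and 8.82 in differentiated arrays, against 7.18 and 7.14 in undifferentiated arrays, with a log2 fold change of 0.99 (SE 0.36, limma adjusted p = 0.100). The groups did not overlap, and the differentiated arrays spread over more than 1 log2 unit. Oasl2, a member of the oligoadenylate synthetase family, measured 4.47, 4.40, 4.34 and 5.58 in differentiated arrays, against 3.89 in each undifferentiated array. Differentiated replicate 4 lay more than 1 log2 unit above the rest of its group, and the log2 fold change was 0.81 (limma adjusted p = 0.257). Ifit1, whose protein binds viral RNA that lacks cap methylation, measured 5.33, 5.50, 5.33 and 6.29 in differentiated arrays, against 4.54 and 5.22 in undifferentiated arrays (log2 fold change 0.73, limma adjusted p = 0.129). Parp9, an ADP-ribosyltransferase family member, had a log2 fold change of 0.61 (limma adjusted p = 0.227). For Ifi35, an interferon-induced leucine zipper protein, it was 0.60 (limma adjusted p = 0.067). Rtp4, a receptor transporter protein, had a log2 fold change of 0.58 (limma adjusted p = 0.125), and its 2 probe sets disagreed, at 1.19 and −0.02.

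The transcription factors of the pathway did not pass. Irf1, a factor induced through GAS elements, measured 7.46, 7.42, 7.42 and 7.64 in differentiated arrays, against 7.11 and 6.90 in undifferentiated arrays (log2 fold change 0.48, limma adjusted p = 0.0774). Irf7, which drives the interferon alpha genes, overlapped between the groups, with a log2 fold change of 0.31 and a 95% interval of −0.38 to 1.00. Irf9 had a log2 fold change of 0.24 (95% interval −0.42 to 0.91). Stat2 differed by 0.36 (95% interval −0.29 to 1.01), with 0.52 and 0.20 in its 2 probe sets.

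Among the classical antiviral effectors, Mx1, Mx2 and the OAS genes other than Oasl2 gave small differences. Mx1 and Mx2, GTPases that trap viral nucleocapsids, lay below the array median in all arrays, at 2.90 to 3.39 and at 3.65 to 4.44. The MX genes are known to be defective in many inbred mouse strains. Oas1a, Oas2 and Oas3 belong to the OAS genes, whose active enzymes make the oligoadenylates that activate RNase L. Oas1a measured 8.14, 8.16, 8.25 and 8.80 in differentiated arrays, against 8.35 and 8.43 in undifferentiated arrays. It differed by −0.05 (limma adjusted p = 0.958). Oas2 differed by 0.10 and Oas3 by 0.06. Oasl1 was higher by 0.25 (limma adjusted p = 0.160). Eif2ak2, the kinase PKR that stops translation on sensing double-stranded RNA, was higher in all 4 differentiated arrays than in both undifferentiated arrays, by 0.41 (limma adjusted p = 0.180). Among the members tied to antigen processing, Psmb8 and Psmb9, catalytic subunits of the immunoproteasome, differed by 0.20 and 0.07. Tap1, a subunit of the peptide transporter, differed by −0.08. The probe sets of a gene did not always give like differences. They were 0.51 and −0.10 for Psmb8 and ranged from −0.29 to 0.06 over the 4 of Tap1. Cxcl10, a chemokine for activated T cells, differed by 0.17 (95% interval −0.21 to 0.55). The guanylate-binding proteins Gbp2 and Gbp3, GTPases that attack the vacuoles of intracellular microbes, differed by 0.09 and 0.00. None of the remaining members passed either. Xaf1, a regulator of apoptosis, was higher by 0.42 without overlap of the groups (limma adjusted p = 0.237), and Ifit3, Trim25, Parp14 and Zbp1 had log2 fold changes of 0.43, 0.30, 0.25 and 0.22 with overlapping groups. Here too the probe sets disagreed, at 0.72 and 0.13 for Xaf1, 0.55, 0.20 and 0.15 for Trim25, 0.43 and 0.07 for Parp14 and 0.40 and 0.03 for Zbp1.

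**Figure D2:**
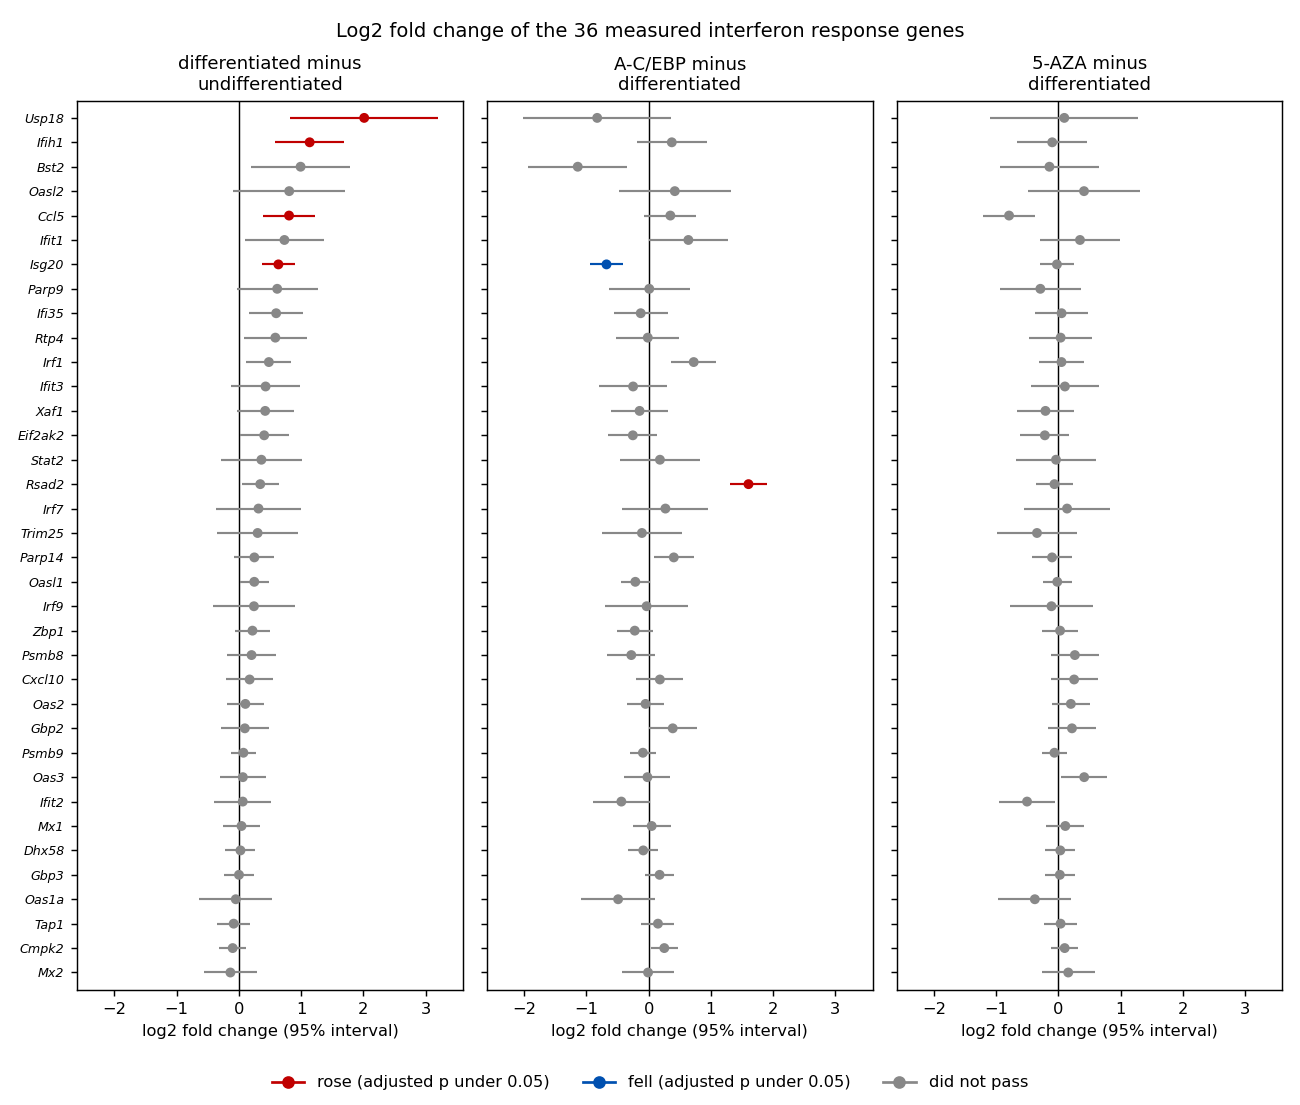
Log2 fold change (x axis) of the 36 measured members (y axis, ordered by the left panel) in the 3 comparisons, with 95% intervals from the limma fit. Red marks members that rose, blue those that fell and grey those that did not pass. In the left panel 32 of 36 points lie above 0 and 4 are red, in the middle panel Rsad2 is red and Isg20 blue, and in the right panel all are grey.

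The second comparison asked how A-C/EBP changes the members in differentiated keratinocytes. Rsad2 rose and Isg20 fell, so that 1 of 36 members passed upward and 1 downward, where 1.49% of all genes rose and 0.572% fell (2.06% in either direction). Differences over 0.5 were found for 3 members upward, against 3.71% of all genes, and for 3 downward, against 3.03%. The 4 differentiated arrays serve as the controls here and are the same ones that were compared with undifferentiated cells. The median log2 fold change was −0.02 over the members and 0.01 over all genes. The arrays did not overlap for 5 members with A-C/EBP higher, against 12.6% of all genes, and for 4 with A-C/EBP lower, against 8.81%. Those counts are 13.9% and 11.1% of the members. Of 9 fibroblast markers, 5 were under −0.5, with a median of −0.51. Higher with A-C/EBP were 6 of 6 melanocyte markers (median 0.26), 13 of 17 immune cell markers (median 0.06) and 8 of 9 keratinocyte markers (median 0.33). By limma 0 markers of these lists passed, and their part in the members' changes was not tested.

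Rsad2 encodes viperin, an enzyme that makes a chain-terminating nucleotide and blocks the replication of many RNA viruses. It measured 6.12 and 6.27 in A-C/EBP arrays, against 4.61, 4.30, 4.67 and 4.78 in differentiated arrays. Both A-C/EBP arrays lay more than 1 log2 unit above the highest array of any other group. The log2 fold change was 1.60 (SE 0.13, limma adjusted p = 0.0006), a fold of 3.04, and its 3 probe sets gave 1.33, 1.68 and 1.80. The gene remained within 1.47 to 1.80 under 21 other settings and passed in 20 of them, the exception being the methods' t-test (adjusted p = 0.236). Cmpk2 encodes a mitochondrial nucleotide kinase and neighbours Rsad2 in the mouse genome. It lay below the array median throughout and was higher by 0.25 (limma adjusted p = 0.273).

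Isg20 measured 6.23 and 5.94 in A-C/EBP arrays, against 6.79, 6.79, 6.63 and 6.85 in differentiated arrays. The groups did not overlap, with a log2 fold change of −0.68 (SE 0.12, limma adjusted p = 0.0232). The call was lost without A-C/EBP replicate 2, where the value was −0.54 (limma adjusted p = 0.257). It was also lost without differentiated replicate 1, 2 or 4, where the values were −0.67, −0.67 and −0.65.

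Bst2 measured 7.31 and 6.71 in A-C/EBP arrays, against 8.08, 7.69, 8.00 and 8.82 in differentiated arrays. All A-C/EBP arrays lay below all differentiated ones, and the log2 fold change of −1.14 (SE 0.36, limma adjusted p = 0.163) did not pass. Irf1 measured 7.89 and 8.53 in A-C/EBP arrays, against 7.46, 7.42, 7.42 and 7.64 in differentiated arrays. The groups did not overlap, and the log2 fold change was 0.72 (SE 0.16, limma adjusted p = 0.0538). The A-C/EBP arrays differed, since the value was 1.04 (limma adjusted p = 0.0071) without A-C/EBP replicate 1 and 0.40 (limma adjusted p = 0.426) without A-C/EBP replicate 2. Usp18 measured 7.87 and 7.06 in A-C/EBP arrays, within or below the differentiated values, with a log2 fold change of −0.83 (95% interval −2.01 to 0.36). Ifit1 measured 6.31 and 6.19 in A-C/EBP arrays and lay close to differentiated replicate 4 at 6.29, with a log2 fold change of 0.64 (limma adjusted p = 0.366). Ifih1 measured 8.68 and 8.60 in A-C/EBP arrays, with a log2 fold change of 0.37 (95% interval −0.19 to 0.93).

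The third comparison asked how 5-azacytidine changes the members in differentiated keratinocytes. By limma, 0 of 36 members rose and 0 fell, where 0.17% of all genes rose and 0.115% fell. An unadjusted limma p under 0.05 was reached by 3 members, and by 9.1% of all genes. By the methods' t-test, 2 members reached an unadjusted p under 0.05 and 0 an adjusted one, against 1207 and 0 of all 18193 genes. Ccl5 measured 4.83 and 4.70 in 5-AZA arrays, against 5.57, 5.52, 5.46 and 5.70 in differentiated arrays. The groups did not overlap, and the 5-AZA arrays lay among the undifferentiated values of 5.00 and 4.51. The log2 fold change was −0.79 (SE 0.19, limma adjusted p = 0.162). Ifit2, a relative of Ifit1, measured 5.41 and 4.81 in 5-AZA arrays, with a log2 fold change of −0.50 (limma adjusted p = 0.488). Oas3 measured 4.94 and 4.26 in 5-AZA arrays, with a log2 fold change of 0.41 (limma adjusted p = 0.481). The median log2 fold change was 0.03 over the members and 0.04 over all genes. Over the members it was −0.16 without 5-AZA replicate 1 and 0.16 without replicate 2, against 0.04 and 0.03 over all genes. The arrays did not overlap for 2 members with 5-AZA higher, against 11.2% of all genes, and for 1 with 5-AZA lower, against 5.15%. Differences over 0.5 were found for 0 members upward, against 1.89% of all genes, and for 2 downward, against 2.09%. Of the 17 immune cell markers, 0 passed by limma, 4 reached an unadjusted limma p under 0.05 and 2 were under −0.5. Lyz2 measured 6.83 and 7.25 in 5-AZA arrays, against 7.65 to 9.18 in differentiated arrays. The log2 fold change was below 0 for 10 of the 17, with a median of −0.02. The part of these markers in the members' changes was not tested.

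The 2 5-AZA arrays differed from each other for many members. 5-AZA replicate 1 was higher than 5-AZA replicate 2 for 30 of 36 members (83.3%), against 50.1% of all genes. The difference was over 0.5 for 16 members (44.4%), against 5.96% of all genes, and under −0.5 for 0, against 2.99%. Its median was 0.48 over the members and 0.00 over all genes. Usp18 measured 9.32 and 7.46 in the 2 5-AZA arrays, a difference of 1.86 that is the largest in this direction of all 18193 genes. Oasl2 measured 5.81 and 4.41, Bst2 8.61 and 7.40, and Irf7 6.32 and 5.21. Parp9, Oas1a and Irf9 also differed by more than 1, at 1.09, 1.03 and 1.01. These values describe 2 arrays of one group and carry no test.

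Differentiated replicate 4 stood apart in many of the same members. It was the highest of the 4 differentiated arrays for 25 of 36 members (69.4%), against 26.7% of all genes. Its excess over the mean of the other differentiated arrays had a median of 0.26 over the members, against 0.03 over all genes, and was over 0.5 for 9 members (25%), against 1.79% of all genes. The excess was 1.35 for Usp18, 1.18 for Oasl2, 0.90 for Ifit1 and 0.89 for Bst2. The members over 0.5 in both were 8, namely Stat2, Irf9, Ifih1, Usp18, Oas1a, Oasl2, Bst2 and Parp9. They are 8 of the 16 in 5-AZA and 8 of the 9 in differentiated arrays. Rsad2 and Isg20 were not among them. Genes over 0.5 in both were not counted over all genes. Over all genes, the deviations of 5-AZA replicate 1 and differentiated replicate 4 from their group means correlated at 0.45. Differentiated replicate 2 was the lowest of its group for 19 members, which is 52.8%, near the 50.8% of all genes for which it was the lowest.

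**Figure D3:**
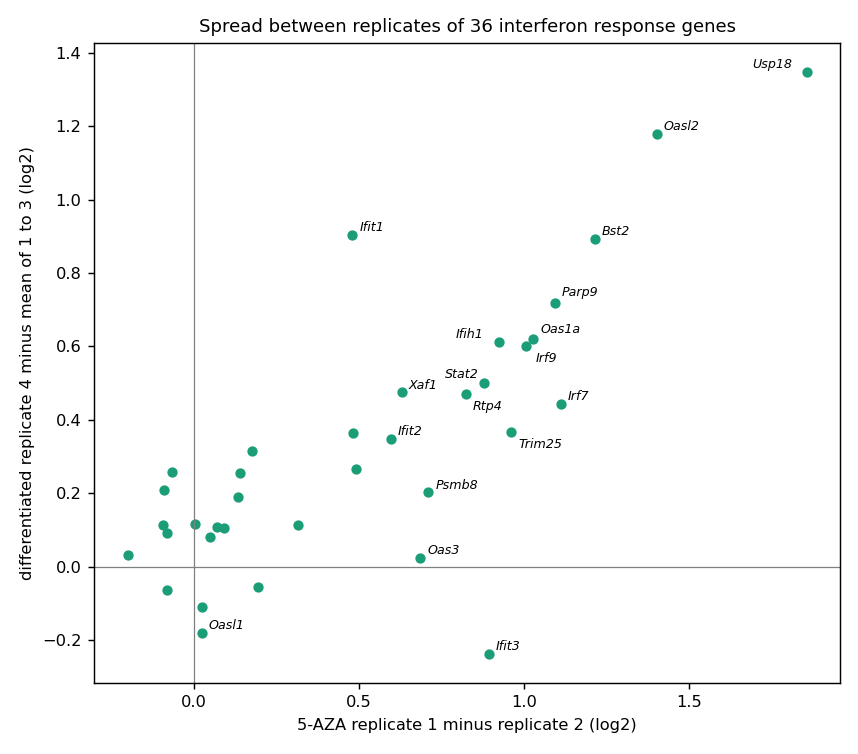
Each point is 1 of the 36 members, plotted by 5-AZA replicate 1 minus replicate 2 (x axis, log2) and by differentiated replicate 4 minus the mean of differentiated replicates 1 to 3 (y axis, log2). Usp18 lies farthest out on both axes at 1.86 and 1.35, and most named members lie in the upper right. Ifit3 (−0.24) and Oasl1 (−0.18) lie lowest on the y axis.

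The pattern did not extend to every group. Between the A-C/EBP arrays, 4 members (11.1%) differed by over 0.5 and 4 (11.1%) by under −0.5, with a median of 0.01. The shares of all genes were 5.13% and 2.74%. Between the undifferentiated arrays, 0 members differed by over 0.5 and 3 (8.33%) by under −0.5, with a median of −0.06. There the shares of all genes were 3.67% and 2.04%. The mean level of the 36 members was 6.03 in 5-AZA replicate 1 and 5.53 in replicate 2, 5.83 and 5.79 in A-C/EBP arrays, 5.75, 5.62, 5.76 and 6.03 in differentiated arrays, and 5.39 and 5.45 in undifferentiated arrays. These arrays were singled out after their values were seen, and no test was made. Immune cell markers were at their lowest mean of the group in both arrays, at 4.92 in 5-AZA replicate 1 and 5.00 in differentiated replicate 4. The mean of the fibroblast markers was 6.30 in 5-AZA replicate 1 and 5.89 in replicate 2, and 5.97 in differentiated replicate 4, where differentiated replicate 1 had 6.39. 5-AZA replicate 1 was higher than replicate 2 for 8 of 9 fibroblast markers and by over 0.5 for 4 of them (44.4%, against 5.96% of all genes). Between the undifferentiated arrays, 4 of 9 fibroblast markers were over 0.5 (44.4%), against 3.67% of all genes. Of 14 antigen presentation genes, 5 differed by over 0.5 between the 5-AZA arrays (35.7%, against 5.96% of all genes). In differentiated replicate 4, 3 of 6 melanocyte markers lay more than 0.5 under the mean of the other differentiated arrays, with a median of −0.49. Of all genes, 0.588% lay so far under. The part of the immune cell, fibroblast and melanocyte markers in the pattern was not tested.

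**Figure D4:**
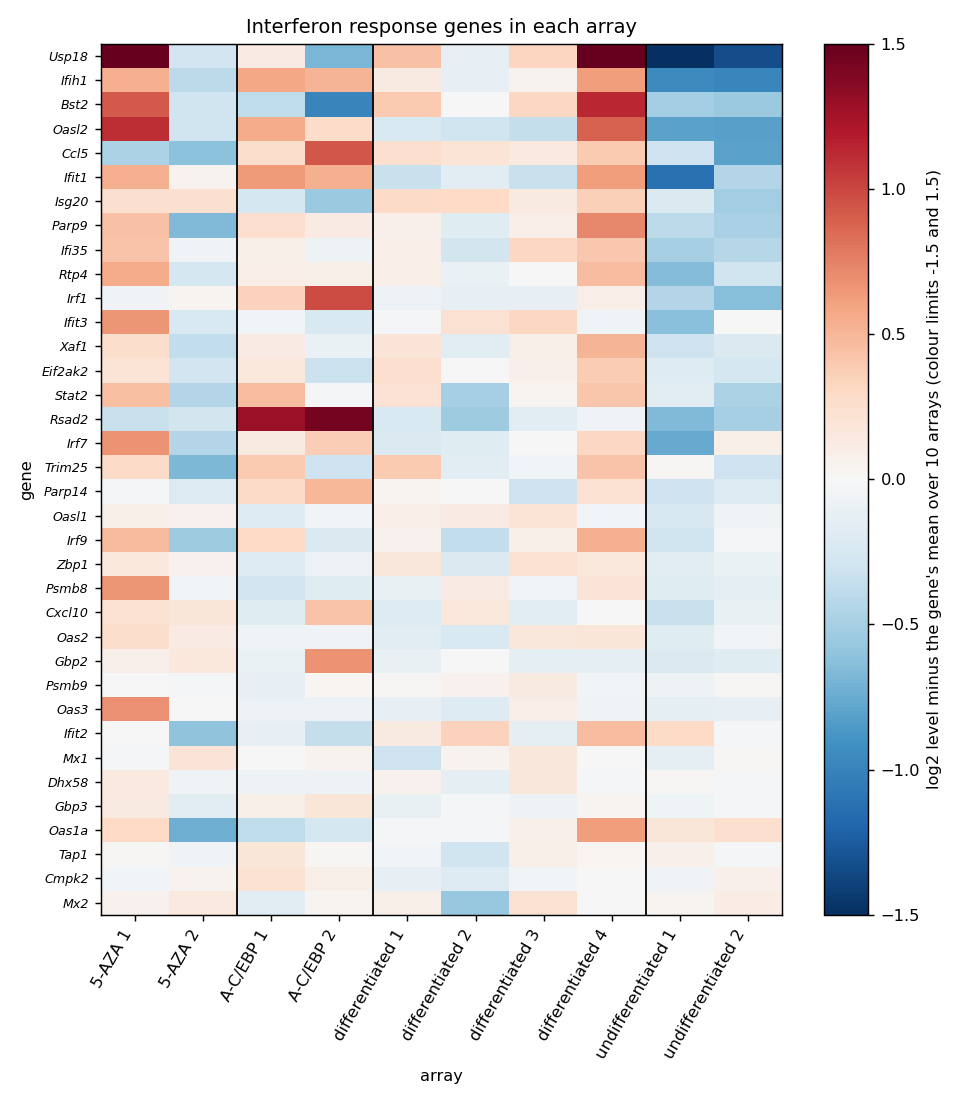
Log2 level of each of the 36 members (y axis, ordered by the change with differentiation) in the 10 arrays (x axis) relative to the gene's mean over all arrays, with colours limited to −1.5 and 1.5. Both undifferentiated arrays are blue for most of the upper members, 5-AZA replicate 1 and differentiated replicate 4 are red for Usp18, Bst2 and Oasl2, and Rsad2 is red in both A-C/EBP arrays alone.

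Other genes of the pathway, from lists of related function, gave few calls, against the 6.64% of all genes that rose and 9.14% that fell with differentiation, and the 1.49% and 0.572% that did so with A-C/EBP. Of 12 measured interferon and receptor genes, 1 rose with differentiation, the receptor subunit Il10rb (log2 fold change 0.48, SE 0.09, limma adjusted p = 0.0055), and 0 fell. Ifna2, Ifna4, Ifnb1 and Ifng lay below the array median in every array, Ifnb1 at 3.77 to 4.22 and Ifng at 3.05 to 3.26. Ifna1 lay below it in 4 of 10 arrays, and Ifnz lay above it in all 10, at 5.29 to 5.93. By limma 0 of the 12 passed with A-C/EBP (4 unadjusted, against 13.6% of all genes) and 0 with 5-AZA (1 unadjusted, against 9.1%). Of 11 measured genes of JAK-STAT signalling, 0 passed with differentiation by limma (2 unadjusted, against 25.8% of all genes). Jak2, a kinase that acts downstream of the interferon gamma receptor, rose with A-C/EBP (0.77, SE 0.15, limma adjusted p = 0.0367). With A-C/EBP, 6 of the 11 reached an unadjusted p under 0.05, against 13.6% of all genes, and 7 (63.6%) were higher without overlap of the arrays, against 12.6%. The Jak2 call was lost on leaving out any single undifferentiated, differentiated or A-C/EBP array, with values of 0.68 to 0.82. Of 18 nucleic acid sensors and their signalling genes, 2 fell with differentiation. These were Cgas, the sensor of cytosolic DNA (−0.69, limma adjusted p = 0.0010), and Ikbke, a kinase that activates IRF3 and IRF7 (−1.52, limma adjusted p = 0.0015). Of 14 antigen presentation genes, B2m, the light chain of MHC class I, rose with differentiation (0.55, limma adjusted p = 0.0446). The B2m value was 0.46 to 0.62 on leaving out single arrays, and it did not pass without either undifferentiated array, without differentiated replicate 1, 3 or 4, or without either A-C/EBP array. Il10rb did not pass without undifferentiated replicate 1 (0.48).

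A list of other interferon-induced genes, 47 of them measured, had 3 rises and 2 falls with differentiation (6.38% rose, against 6.64% of all genes). Slfn2, a regulator of T cell quiescence, rose by 1.11, Tor3a by 0.84 and Nt5c3 by 0.58, whereas Slfn9 fell by 0.80 and Pml, the scaffold of nuclear bodies, fell by 0.59. Slfn2 and Slfn9 passed on leaving out any single array. Tor3a did not pass without either undifferentiated array (0.97 and 0.71) or without differentiated replicate 1, 3 or 4 (0.88, 0.77 and 0.73). Nt5c3 did not pass without either undifferentiated array (0.56 and 0.60) or without differentiated replicate 4 (0.59), nor did Pml (−0.46, −0.73 and −0.61). The median of the list was 0.07. With A-C/EBP, Ifitm2, a membrane protein that restricts virus entry, fell by 0.90 (limma adjusted p = 0.0178), though without A-C/EBP replicate 2 it did not pass (−0.65). By limma 0 of the 47 passed with 5-AZA (5 unadjusted, against 9.1% of all genes). The replicate difference between the 5-AZA arrays was over 0.5 for 15 of the 47 (31.9%), against 5.96% of all genes. It was under −0.5 for 0, against 2.99%, with a median of 0.29, and Lgals3bp measured 7.76 and 6.32. Differentiated replicate 4 exceeded the mean of the other differentiated arrays by over 0.5 for 9 of the 47 (19.1%), against 1.79% of all genes.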

How the data were processed

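mRNA was measured on Affymetrix mouse expression arrays (10 arrays). Per the submitters' processing notes, the deposited log2 values come from Affymetrix Expression Console, where the authors ran RMA (no version stated). RMA corrects background, normalizes arrays to each other and gives 1 value per probe set. Because of this normalization a shift shared by all genes would not be seen, and a place above or below the array median describes array signal, not mRNA abundance. Of 45101 probe sets, 34945 carry 1 symbol, 932 several, 9160 none and 64 are array controls. Of the first, 34741 matched the RefSeq table by gene number, with 0 symbols changed. Single-symbol probe sets were averaged, giving 18193 genes, of which 9010 had more than 1 probe set.

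All arrays entered 1 fit in limma 3.58.1 (R 4.3.3) with a mean per group and 6 residual degrees of freedom, two-sided, with Benjamini-Hochberg adjustment over all genes. A gene rose or fell at an adjusted p under 0.05. The differentiated arrays serve in all comparisons. The fit was tested on simulated data. Tables and figures used Python 3.11.15 with pandas 2.3.3 and matplotlib 3.10.9.

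The members, related lists and cell type markers were chosen with earlier results of these data known. Genes named are all members and, from each other list, up to 4 genes with the smallest adjusted p in a comparison, with interferons and their receptors. Lgals3bp and the markers Ptprc, Lyz2, Tyrobp and Cd68 fall outside this rule and were chosen after their values were seen. The markers Krt1 and Krt10 were also chosen after their values were seen. The motif letters and printed promoters were chosen after the member values were seen. As alternatives, arrays were centred on their medians or quantile normalized. Genes were read from their brightest probe set or without probe sets shared between transcripts, or the dimmest 40% of genes were dropped. The fit was also run with an intensity trend, a replicate block, only the compared groups or 2 of the 4 differentiated arrays. Other alternatives were a difference over 0.5, a t-test per gene and omission of each array. After an omission, a lone remaining array is assumed to vary like the other groups. The methods call mRNA changes with differentiation by the 0.5 threshold. They name a t-test without describing one per gene across arrays. Both A-C/EBP arrays carry the number 2 in their descriptions, so replicate numbers came from the titles. The precision is limited by the number of arrays.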

Additional observations from a re-analysis of the deposited data

Results flagged for a closer look

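Within the 4 differentiated arrays, 3 of the 36 members had an array far from the other three by Dixon's ratio of the gap to the range. Chance flags about 1 in 20 groups, which would be 1.8 of 36. Oas1a was high in differentiated replicate 4 at 8.80, with a ratio of 0.835. Oasl2 was high in the same array at 5.58, with a ratio of 0.895. Zbp1, a sensor of nucleic acids in the Z conformation, was low in differentiated replicate 2 at 4.50, with a ratio of 0.862. Groups of 2 arrays were not examined in this way.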

How the results depend on the processing

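The 4 rises with differentiation became 7 with quantile normalization and 10 by a difference over 0.5. They became 0 by the t-test per gene with adjustment (6 members unadjusted, against 4025 of all 18193 genes). They became 1 with differentiated arrays 1 and 2 only, and 3 to 7 when single differentiated arrays were left out. The single rise with A-C/EBP became 2 without the dimmest 40% of genes, 3 by a difference over 0.5, 0 by the t-test and 1 to 3 when single arrays were left out. The single fall became 3 by a difference over 0.5, 0 by the t-test, 0 with differentiated arrays 1 and 2 only, 0 with arrays 3 and 4 only and 0 to 1 when single arrays were left out. With 5-AZA, 2 members were lower by a difference over 0.5. No call turned its direction. Among members that did not pass with differentiation, the sign turned for Oas2 (−0.085), Oas3 (−0.027), Dhx58 (−0.031), Mx1 (−0.069) and Gbp3 (−0.025) both with the replicate block and with differentiated arrays 1 and 2 only, and for Oas1a (0.14), Tap1 (0.029) and Mx2 (0.042) with arrays 3 and 4 only. For Gbp2 it turned (−0.042) with the brightest probe set and without probe sets shared between transcripts. When single arrays were left out it turned for Irf7, with values of −0.11 to 0.73, for Oas1a, with −0.21 to 0.015, for Dhx58, with −0.027 to 0.077, for Ifit2, with −0.098 to 0.22, for Mx1, with −0.038 to 0.14, for Mx2, with −0.23 to 0.031, and for Gbp3, with −0.028 to 0.028. With a replicate block, 3 members rose with differentiation, since Ccl5 did not pass (0.79, limma adjusted p = 0.0532), and the A-C/EBP and 5-AZA calls stayed as they were. Same-numbered arrays deviated together, with correlations of 0.09 to 0.43. Some arrays of different number did so too (0.56 for 5-AZA 2 with differentiated 3 and 0.45 for 5-AZA 1 with differentiated 4). In a group of 2 arrays the deviations are mirror images. Each correlation therefore recurs with the opposite sign for the other array and is not separate evidence. The labels do not say that a number marks a shared culture.

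Over all genes, the rises and falls with differentiation were 1208 and 1662, against 376 and 488 by the t-test, 757 and 1106 with differentiated arrays 1 and 2 only, and 665 to 1452 rises and 770 to 1669 falls when single arrays were left out. With A-C/EBP they were 271 and 104, against 504 and 269 with the replicate block, 675 and 552 by a difference over 0.5, 78 and 42 with differentiated arrays 1 and 2 only, 55 and 25 with arrays 3 and 4 only, 0 by the t-test, and 47 to 265 rises and 7 to 142 falls when single arrays were left out. Quantile normalization gave 206 falls and a fit of the 2 compared groups 67. With 5-AZA they were 31 and 21, against 213 and 185 with the replicate block, 344 and 380 by a difference over 0.5, 13 and 11 with median centring, 14 and 10 in a fit of the 2 compared groups, 7 and 10 with differentiated arrays 1 and 2 only, 0 with arrays 3 and 4 only, 0 by the t-test, and 1 to 33 rises and 1 to 24 falls when single arrays were left out. Quantile normalization gave 34 falls.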
